A study of Mus musculus with 5 samples.

Results

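The GIMAP genes were measured in CD8 T cells of 1 antigen specificity from 2 sources. The part of the array described here holds every probe set that the platform annotation pairs with exactly 1 of the symbols Gimap1, Gimap3, Gimap4, Gimap5, Gimap6, Gimap7, Gimap8 and Gimap9. That gave 11 probe sets for 8 genes, out of 18193 genes with a probe set of 1 symbol. The family was selected on its measured signals in these arrays, the difference between the 2 groups described next. The first group consisted of 3 G9C8 clone arrays, each from a separately frozen vial of a CD8 T cell clone kept in culture, so that all 3 stand for 1 clone. The second group consisted of 2 NOD.G9C8 transgenic arrays, each from the splenocytes of a separate mouse aged 4 to 8 weeks on the NOD/LtJ background, which carries the G9C8 T cell receptor as a transgene. Cells of both groups were stimulated with an insulin B peptide at 10 µg/ml for 3 days followed by a 2-day rest in IL2 at 5 IU/ml. No sort of CD8 T cells before RNA extraction is named, so other spleen cells may have remained in the transgenic cultures.

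GIMAP proteins (GTPases of immunity-associated proteins) are guanine nucleotide binding proteins that sit mostly on the membranes of organelles in lymphocytes. They are known for keeping resting T and B cells alive; loss of Gimap5 causes a severe loss of T cells in mice and in the BB rat, a strain prone to autoimmune diabetes. Their genes form a cluster in mammalian genomes, and they are commonly most active in naive and resting lymphocytes.

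In the RefSeq annotation of GRCm38.p6 the 8 genes lie side by side on chromosome 6 in the order Gimap8, Gimap9, Gimap4, Gimap6, Gimap7, Gimap1, Gimap5 and Gimap3, with no other gene that has a named probe set among them. Gimap6 and Gimap3 are transcribed from the minus strand and the other 6 from the plus strand. Because the genes are neighbours that were all lower in the clone by different amounts, the RefSeq promoter windows of the 2 genes with the largest and the 2 with the smallest difference are printed here, from 250 bases before to 50 bases after the annotated start. Capitals mark matches, on either strand, to short motifs of lymphocyte transcription factors: GGAAGT for ETS, TGTGGT for RUNX, GTAAACA for FOXO, CCACCC for KLF, CTTTGA for LEF/TCF and TGGGAA for IKZF factors.
Gimap6, GRCm38.p6, chr6:48708195-48708494, minus strand: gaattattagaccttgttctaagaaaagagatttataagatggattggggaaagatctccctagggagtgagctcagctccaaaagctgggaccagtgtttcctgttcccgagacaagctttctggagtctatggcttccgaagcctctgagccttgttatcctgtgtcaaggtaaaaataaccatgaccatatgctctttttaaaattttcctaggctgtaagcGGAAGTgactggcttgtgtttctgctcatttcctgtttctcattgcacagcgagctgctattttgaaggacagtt
Gimap4, GRCm38.p6, chr6:48684328-48684627, plus strand: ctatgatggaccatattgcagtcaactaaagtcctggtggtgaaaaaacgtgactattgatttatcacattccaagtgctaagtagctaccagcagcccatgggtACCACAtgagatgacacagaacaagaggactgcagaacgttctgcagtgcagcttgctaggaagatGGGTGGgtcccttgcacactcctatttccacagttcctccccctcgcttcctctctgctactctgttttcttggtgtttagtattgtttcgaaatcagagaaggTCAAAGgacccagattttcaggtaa
Gimap1, GRCm38.p6, chr6:48738797-48739096, plus strand: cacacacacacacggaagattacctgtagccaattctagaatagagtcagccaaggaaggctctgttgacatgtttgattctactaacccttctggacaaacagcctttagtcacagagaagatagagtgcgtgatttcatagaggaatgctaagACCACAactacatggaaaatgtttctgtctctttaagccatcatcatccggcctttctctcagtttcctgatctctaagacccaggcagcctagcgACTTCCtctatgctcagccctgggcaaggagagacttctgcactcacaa
Gimap3, GRCm38.p6, chr6:48770802-48771101, minus strand: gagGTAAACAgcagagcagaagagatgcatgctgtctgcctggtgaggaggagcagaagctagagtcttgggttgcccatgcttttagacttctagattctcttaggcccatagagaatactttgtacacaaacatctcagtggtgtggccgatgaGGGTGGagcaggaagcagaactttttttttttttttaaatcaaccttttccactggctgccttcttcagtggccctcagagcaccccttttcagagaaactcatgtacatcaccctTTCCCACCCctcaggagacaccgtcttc

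The Gimap6 window held an ETS match that begins 25 bases before the start and none of the other motifs. The Gimap4 window held a RUNX, a KLF and a LEF/TCF match, the Gimap1 window an ETS and a RUNX match, and the Gimap3 window 2 KLF matches, a FOXO match and an IKZF match. RefSeq gives 9 windows for the 8 genes, with 2 overlapping windows for Gimap8. The ETS letters were found in 4 of the 9 windows and in 23.8% of all 32851 promoter windows of the same length. The KLF letters were found in 5 of 9 against 31.5% of all windows, and the RUNX letters in 3 of 9 against 16.8%. The LEF/TCF letters were found in 2 of 9 against 16% of all windows. FOXO and IKZF letters were each found in 1 of 9, against 3.65% and 25.6% of all windows. GGAAGT and TGGGAA share letters and can overlap. No set of these letters was common to all 8 genes, and a match describes a sequence, not a bound site.

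The arrays were scaled alike by the authors' software, with median signals over all probe sets between 132.3 and 141.9. All 11 Gimap probe sets had a mean signal above 88.2, the level below which probe sets were not tested, so every gene could be described. The T cell label was matched by the markers: all 11 measured T cell genes lay above that level in both groups, and Cd3e, a chain of the T cell receptor complex, read 5102 ± 316 (SD, n = 2) in transgenic and 5839 ± 600 (SD, n = 3) in clone cells. The summed signal of these 11 genes was nevertheless lower in clone, at 64724 to 72690 against 84217 to 91891. Of the 11, 5 were called lower in clone (limma adjusted p under 0.05), namely Cd2 (-1.75), Cd247 (-1.37), Cd8a (-0.68), Cd8b1 (-0.65) and Cd3d (-0.49). Zap70 (0.90) and Cd6 (0.28) were called higher, and 4 were not called. Without the first transgenic array Cd3d, Cd8a and Cd6 were not called, nor were Cd8a and Zap70 with the mean over probe sets; the Cd6 call also ended without the second transgenic array, without clone replicate 1 or 3, with eBayes without trend and with the replicate block. The summed signals of several other cell types' markers were higher in the transgenic cultures, though not every marker was. The summed signal of 12 myeloid markers ranged from 13432 to 14475 on the transgenic and from 5274 to 5929 on the clone arrays, with 6 of 8 tested genes called lower in clone and Cd68 (675 ± 135 against 472 ± 104 in transgenic cells) and Fcgr1 (192 ± 16.4 against 147 ± 1.41) not called. The sum was lower in clone also for 9 measured B cell markers, at 1035 to 1364 against 1761 to 1814 in transgenic cells. That gap was carried by Cd79b, a chain of the B cell receptor, which gave 624 ± 42.8 in transgenic and 26.7 ± 22.0 in clone cells. Ms4a1, encoding CD20, gave 173 ± 10.6 and 146 ± 38.6. Cd79b was the only 1 of 6 tested B cell genes called lower in clone, and 5 were not called. Pax5 (217 ± 61.5 against 194 ± 77.4 in transgenic cells), Cd22 (296 ± 70.1 against 270 ± 112) and Cr2 (69.6 ± 5.91 against 28.7 ± 3.96) had the higher mean in clone. Dendritic cell markers summed to between 906 and 1416 on the transgenic and to between 544 and 621 on the clone arrays. Most of that gap was Itgax (584 ± 306 in transgenic and 115 ± 13.0 in clone cells), while Siglech (126 ± 2.76 and 170 ± 48.4) and Flt3 (111 ± 16.3 and 121 ± 68.5) had the higher mean in clone. Erythroid and platelet markers summed to between 1644 and 2309 against 784 to 1046, a gap carried by the platelet gene Pf4 (1279 ± 491 against 89.1 ± 22.6). Itga2b, Slc4a1 and Alas2 of that list had the higher mean in clone. Natural killer cell markers summed to between 21090 and 22406 against 1665 to 1958, most of it Gzma, a granzyme gene that cytotoxic T cells express too. Klre1 (156 ± 32.2 in transgenic and 87.6 ± 18.1 in clone cells) was not called. Ncr1 (66.85 ± 16.6 and 83.2 ± 7.57) and Klra8 (15.8 ± 18.5 and 49.1 ± 3.22), too dim to be tested, had the higher mean in clone. CD4 T cell markers overlapped between groups, at 584 to 743 and 550 to 634. Endothelial markers overlapped as well, at 523 to 784 and 472 to 639, and Tie1 was near 0 in both, with mean signals of 2.55 and 3.37. B cells, natural killer cells and endothelium also express GIMAP genes, and the part of such cells in the differences below was not tested. In RNA from whole cultures, fewer cells of a type and less RNA per cell cannot be told apart.

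The 8 Gimap genes read 50.3% to 91.0% of their transgenic mean signal in the clone, taking each gene by its brightest probe set. The files hold no detection calls, so a low reading such as that of Gimap5 is not known to lie above background. Their differences, clone minus transgenic on the log2(signal + 20) scale, ran from -1.01 for Gimap6 to -0.14 for Gimap1, with a median of -0.46. The median over all 12446 tested genes was -0.01. In 6 of the 8 genes every clone array lay below every transgenic array, a pattern seen in 32.6% of all tested genes; groups did not overlap in either direction for 64.5% of them. The remaining 2, Gimap3 and Gimap5, had overlapping groups. Because these genes were chosen with this contrast in view, their differences are given as a description and were not tested.

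Gimap6, whose product binds the autophagy protein GABARAPL2, differed most. Its brightest probe set read 8200 and 8032 for the mice and 4303, 4818 and 3138 for the vials of the clone. The clone values lay far below both mice, with vial 3 lowest. The mean was 8116 ± 119 (SD, n = 2) in transgenic and 4086 ± 861 (SD, n = 3) in clone cells, a difference of -1.01. A second Gimap6 probe set, built on another transcript sequence, gave 2114 and 1698 against 1116, 1183 and 739, a difference of -0.92. Both probe sets thus placed clone cells at a little over 50% of the transgenic mean signal, 50.3% for the first and 53.1% for the second. The lowest transgenic value of the brightest probe set exceeded the highest clone value by 0.73, which is more than the 0.62 that separated the clone arrays from each other. Of all other tested genes, 8.03% had a lower difference than Gimap6.

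Gimap4, encoding a GTPase that is known to hasten the death of T cells after an apoptotic stimulus, came next. Its brightest probe set read 20272 and 18610 in transgenic cells and 11748, 14586 and 12300 in clone cells. All 3 clone values were lower, and vial 2 was the highest of them. The means were 19441 ± 1175 and 12878 ± 1505, a difference of -0.60. The transgenic signals approached the highest signals of any probe set on these arrays, which were 25836 to 30579, a range in which differences can be compressed. The second Gimap4 probe set, built on the same transcript sequence as the first, lay lower in that range. It read 13337 and 12187 against 8532, 9954 and 8953, and gave -0.48. In both, the gap between the groups was wider than the spread of the clone arrays (0.35 against 0.31, and 0.29 against 0.22). The brightest probe sets of Gimap6 and Gimap4 and the second of Gimap4 were the 3 of 11 for which this held.

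Gimap7 encodes a GTPase known to form dimers in which each molecule stimulates the other. Its brightest probe set read 10132 and 9754 for the mice and 7090, 7954 and 6198 for the vials. The groups did not overlap, and the difference was -0.50, with means of 9943 ± 267 and 7081 ± 878. Its second probe set spread more, at 1329 and 1467 against 1191, 1052 and 549, with a difference of -0.65. Without clone replicate 3, which was the lowest, that second value was -0.31.

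Gimap8 encodes the largest protein of the family, with several GTPase domains. It gave signals of 7211 and 7436 in transgenic and 5555, 6044 and 4523 in clone cells. The clone values were all lower, by a difference of -0.46, from means of 7323 ± 159 and 5374 ± 777. Gimap9, the gene next to it, read 4372 and 4278 against 3848, 3914 and 2809. Here vials 1 and 2 lay just under the mice and vial 3 well below them. The difference of -0.31 became -0.16 without clone replicate 3.

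Gimap5, the member best known for T cell survival, gave low signals on all arrays, and its groups overlapped. It read 257 and 293 in transgenic and 155, 269 and 169 in clone cells. Vial 2 lay between the mice, while vials 1 and 3 lay below both. Its difference of -0.47, from means of 275 ± 25.0 and 197 ± 61.9, was smaller than the 0.72 that separated the clone arrays. Its only probe set was built on an expressed sequence tag, as were those of Gimap6, Gimap8 and Gimap9 and the second of Gimap7. RefSeq also lists Gimap5 as an older name of Gimap3, so the name alone does not separate those genes in older annotations, and here each was matched by its gene identifier.

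Gimap1, which mature T and B cells need in order to persist, and Gimap3, a close relative of Gimap5 found on mitochondria and other organelles, differed least. Gimap1 gave 3807 and 3597 in transgenic and 3513, 3491 and 3101 in clone cells. Its clone arrays were all lower, but the gap to the nearest mouse was 0.03 while the clone arrays spread over 0.18. The Gimap1 difference was -0.14, and -0.08 without clone replicate 3. Gimap3 gave 7693 and 7205 against 6728, 7435 and 6097. Vial 2 exceeded the second mouse, so the groups overlapped, with means of 7449 ± 345 and 6753 ± 670 and a difference of -0.15. That value was -0.07 without clone replicate 3 and -0.30 after quantile normalization, which makes the signal distributions of the arrays identical; the same normalization gave -0.22 for Gimap1. Of all other tested genes, 40.6% had a lower difference than Gimap1 and 39.9% than Gimap3.

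**Figure D1:**
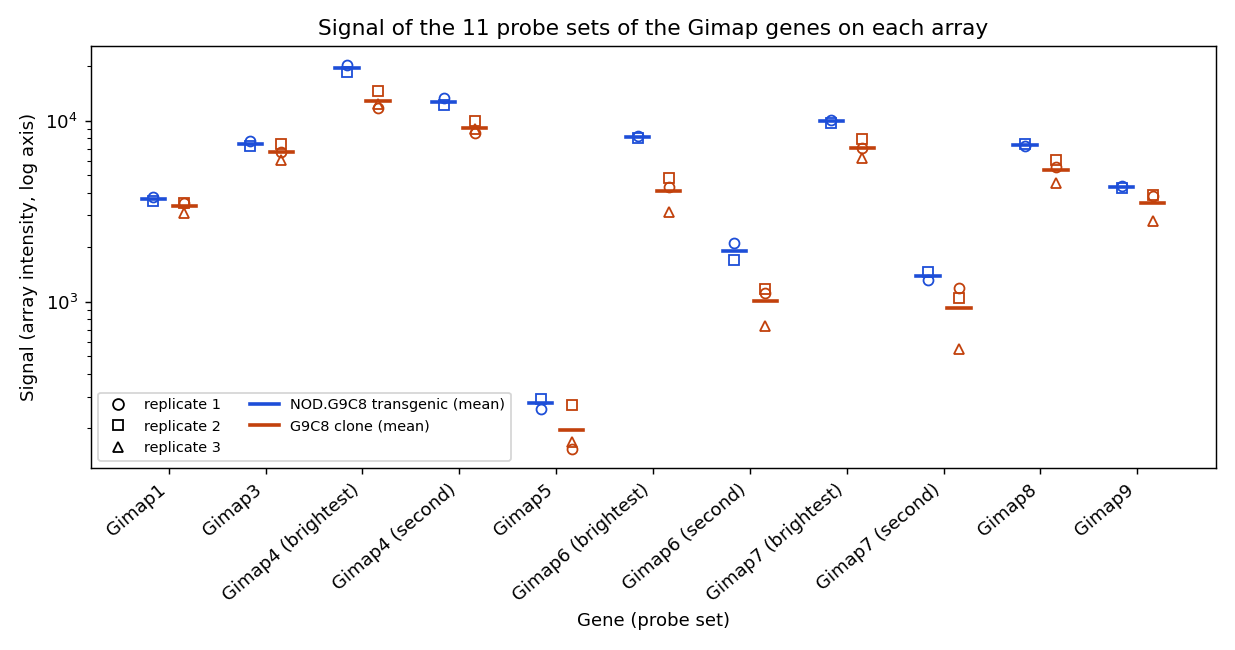
Signal of each Gimap probe set on each array, on a log axis, with transgenic arrays in blue, clone arrays in orange, a symbol for each replicate and a bar for the group mean (n = 2 and n = 3). The clone mean is the lower in all 11 probe sets; the groups separate widely for Gimap6 and overlap for Gimap3 and Gimap5.

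The members also shared a pattern within the clone group. Clone replicate 3 was the lowest of the 3 in 8 of 11 Gimap probe sets, and clone replicate 2 was the highest in 9 of 11. Over all tested genes replicate 3 was the lowest clone array in 31.9% and replicate 2 the highest in 35.6%. Set against the average of clone replicates 1 and 2, replicate 3 differed by a median of -0.28 over the Gimap probe sets and of 0.01 over all tested genes. Among the 11 T cell markers clone replicate 3 was the lowest in 0 and clone replicate 2 the highest in 5. The probe sets are not independent of each other, since 3 of the genes have 2 probe sets each and all share the same RNA. Without clone replicate 3 the median difference of the 8 genes was -0.36, and every gene was still lower in clone.

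**Figure D2:**
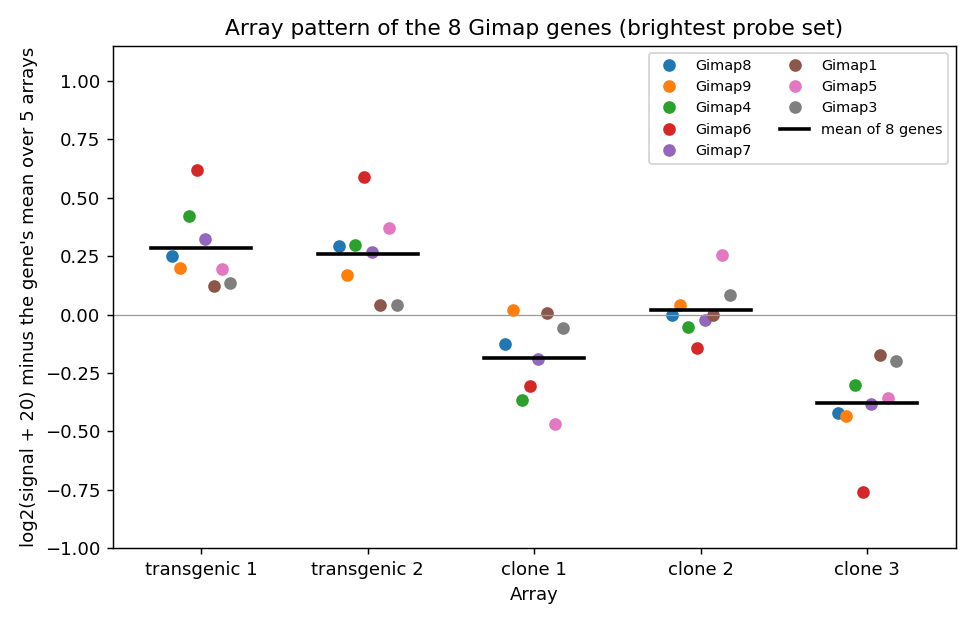
Value of each Gimap gene (brightest probe set) on each array, as log2(signal + 20) minus that gene's mean over the 5 arrays; black bars give the mean of the 8 genes. The bars of the mice stand at 0.28 and 0.26, and those of the vials at -0.19, 0.02 and -0.38.

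Averaged over the 8 genes and centred on each gene's own mean, the family stood at 0.28 and 0.26 in the mice and lower, at -0.19, 0.02 and -0.38, in the vials. Gimap7 followed this average most closely, with a root mean square difference of 0.03 over the 5 arrays, and Gimap8 with 0.04. Gimap6 departed from it most, by 0.29, as its range was wider. Outside the family, the 5 tested genes nearest to the average over these 5 arrays were A430046D13Rik (0.02), Atg2b (0.02), Mkrn1 (0.03), Psenen (0.03) and Tmem43 (0.04). Atg2b encodes a lipid transfer protein of autophagy, Mkrn1 a ubiquitin ligase and Psenen a subunit of gamma-secretase. With 5 arrays in 2 groups, closeness of this kind is a description only.

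The genes around the cluster went both ways. Of the 10 nearest genes with a named probe set on each side, 16 of 20 passed the filter on dim probe sets. Of these 16, 5 were called higher and 5 lower in clone, and 6 were not called (limma, Benjamini-Hochberg adjusted p under 0.05). Over all tested genes 22% were called higher and 21.7% lower. The median difference of the 16 was 0.11, against -0.01 over all tested genes. The largest differences lay directly after Gimap3. Tmem176b, a membrane protein gene, read 245 ± 95.7 in transgenic and 15023 ± 374 in clone cells, which differ by 5.88 (SE 0.19, limma adjusted p = 2.93e-07). Its neighbour Tmem176a gave 8444 ± 405 against 262 ± 5.73, a difference of 4.90 (SE 0.09, limma adjusted p = 2.70e-08). Tmem176b thus stood next to a Gimap gene whose difference was -0.15, with Tmem176a just beyond it.

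Farther along the same side, Gpnmb, encoding a glycoprotein prominent in myeloid cells, was lower in clone by a difference of -3.76 (96.9 ± 38.2 against 1545 ± 513; limma adjusted p = 3.46e-05), as were 6 of the 8 myeloid markers tested. On the other side, the transcript AI854703, directly before Gimap8, was lower in clone with 169 ± 21.8 against 335 ± 43.6 (-0.91, limma adjusted p = 0.00506), and it was not called without the first transgenic array. Zfp775, a zinc finger gene beyond it, was not called (0.29, limma adjusted p = 0.361). Krba1, the farthest gene considered on that side, was lower in clone with 53.9 ± 36.1 against 427 ± 32.3 (-2.74, limma adjusted p = 0.00116). The Krba1 clone mean lay below the level of the filter on dim probe sets, so the size of its difference is uncertain.

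**Figure D3:**
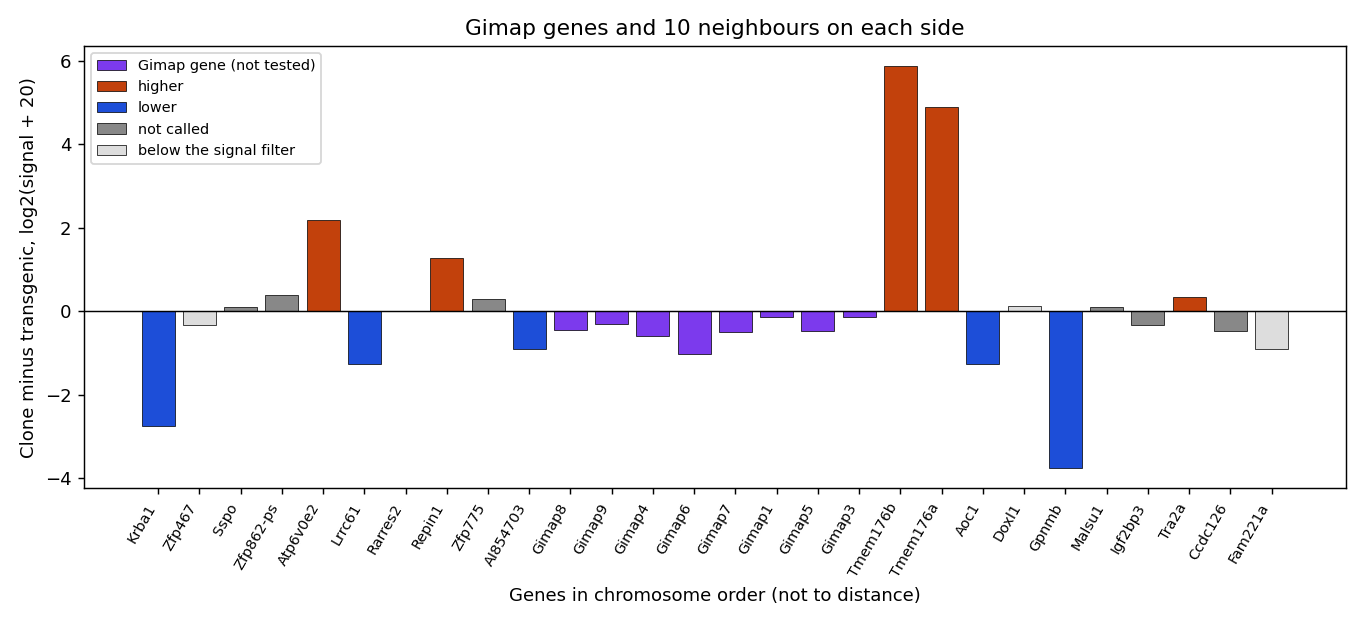
Difference of clone minus transgenic cells for the 8 Gimap genes and the 10 nearest genes with a named probe set on each side, in chromosome order without distances. All 8 Gimap bars are below 0, between -1.01 and -0.14, while Tmem176b (5.88) and Tmem176a (4.90) rise beside Gimap3.

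GIMAP proteins have been described to bind or act with members of the BCL2 family, which decide between survival and death at mitochondria. The same holds for proteins of autophagy and of the GSK3 beta pathway. Genes of these families and pathways are called partners here, without implying that each product is bound. The list was chosen with earlier results of these data known. Of 16 partner genes tested, 5 were higher, 6 lower and 5 not called, with a median difference of 0.16. Over all tested genes, 43.8% were called in either direction. The largest called differences among them went both ways. Bcl2l11, encoding the pro-apoptotic protein BIM, was lower in clone (1268 ± 147 against 3006 ± 408; -1.23, limma adjusted p = 0.000130). Ctnnb1, encoding beta catenin, was lower too (2802 ± 303 against 6374 ± 181; -1.19, limma adjusted p = 5.35e-05). Gabarapl1 (1.13, limma adjusted p = 0.000216) and Bad, a pro-apoptotic BCL2 relative (1.03, limma adjusted p = 0.0141), were higher. Bad was not called without the second transgenic array. Gabarapl2, the partner of GIMAP6, was lower in clone, with 2487 ± 148 against 4037 ± 287, a difference of -0.69 (limma adjusted p = 0.000575); it was named after its value was seen, for its link to Gimap6.

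Transcription factors of resting and developing lymphocytes were lower in clone almost throughout. Of 19 tested, 17 were lower, 1 was higher and Runx1 (-0.20, limma adjusted p = 0.471) was not called. Over all tested genes 21.7% were called lower and 22% higher. The list was chosen with earlier results of these data known, so its counts are a description and not an independent result. The median difference of the factors was -1.17. The largest differences were those of the Ikaros family gene Ikzf3 (182 ± 52.6 against 4644 ± 139; -4.57, limma adjusted p = 1.36e-06) and of Lef1, a nuclear partner of beta catenin (664 ± 151 against 8757 ± 253; -3.70, limma adjusted p = 1.14e-06). Klf2, a quiescence factor whose level drops in T cells that lack Gimap5, followed at 649 ± 29.8 against 5678 ± 452 (-3.09, limma adjusted p = 3.08e-07). Gata3 was lower with 56.2 ± 17.7 against 405 ± 48.6 (-2.50, limma adjusted p = 0.000125). The Gata3 clone mean lay below the level of the filter on dim probe sets, so the size of its difference is uncertain. The 1 higher gene was Gfi1, encoding a transcriptional repressor (0.45, limma adjusted p = 0.0168), named after its value was seen. It was not called without either transgenic array. The lower count was 13 without the second transgenic array. The difference of each Gimap gene was smaller in size than the median of these factors.

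GTPases of other families that interferon induces were divided. Of 11 tested, 7 were lower, 3 were higher and Gbp3 (0.40, limma adjusted p = 0.0629) was not called. The shares over all tested genes were again 21.7% lower and 22% higher, and this list too was chosen with earlier results of these data known. The median of the list was -1.38. The IRG family genes led the lower ones. Irgm2 gave 428 ± 105 against 2141 ± 192 (-2.29, limma adjusted p = 3.07e-05), Iigp1 differed by -1.73 (limma adjusted p = 0.000222), Ifi47 by -1.66 (limma adjusted p = 7.85e-06) and Igtp by -1.63 (limma adjusted p = 4.37e-05). The higher genes were Mx1 (1.36), Gbp6 (0.93) and Gbp8 (0.54), with limma adjusted p of 0.000172, 0.000731 and 0.00134, named after their values were seen. The GBP genes are close in sequence, so that a probe set may read more than 1 of them. Whereas this list went both ways, all 8 Gimap genes had a difference below 0, but the family was selected on this same difference. Whether the lists differ was not tested.

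**Figure D4:**
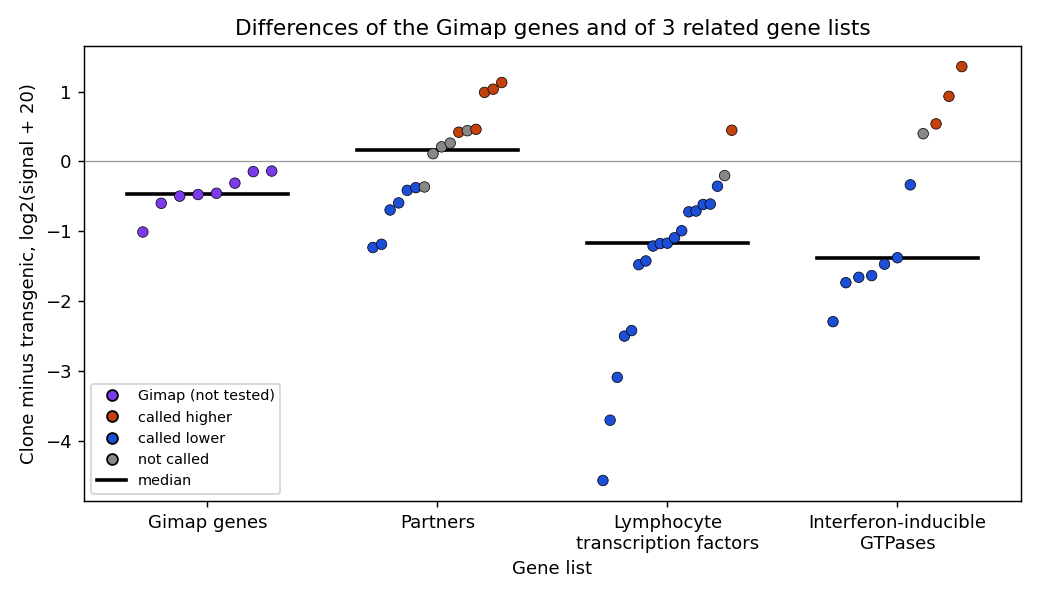
Difference of clone minus transgenic cells for each Gimap gene and each tested gene of 3 related lists, with black bars at the medians of -0.46, 0.16, -1.17 and -1.38. Gimap genes lie in a narrow band below 0, and the transcription factors reach -4.57.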

How the data were processed

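Total RNA of 5 cultures was hybridised to one-colour Affymetrix mouse arrays, and the authors deposited 1 intensity per probe set on a linear scale, made with GCOS per the submitters' processing notes (version not given). The 2% trimmed mean was 500 on every array, so values were used as deposited. The table holds no detection calls. Members and gene lists were chosen with earlier results of these data known.

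Of 45101 probe sets, 64 controls were left out and 34945 have 1 symbol. Values were taken as log2(signal + 20), which understates differences of dim genes. Probe sets with a mean signal of at least 88.2 (the 40th percentile) were kept, each gene by its brightest, leaving 12446 genes. Groups were compared with limma 3.58.1 (R 4.3.3; lmFit, eBayes with trend, two-sided), Benjamini-Hochberg over all genes, called under 0.05. The fit was tested on simulated data. Since the replicates are vials of 1 clone and 2 mice, p-values cover that spread only, and the number of arrays limits the precision.

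Named were all members, up to 4 called genes per list with the largest differences, the genes next to the cluster and the 5 genes nearest to the family average. Some called genes are left to the counts. Of the fixed genes, 16 of 17 partners, 19 of 20 factors and 12 of 16 GTPases had a named probe set. Promoters came from RefSeq (GRCm38.p6), which matched all 8 genes. Figures used matplotlib 3.10.9. Alternatives were quantile normalization, other pseudocounts, filters, probe set rules and variance models, a replicate block and each array left out.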

Additional observations from a re-analysis of the deposited data

How the results depend on the processing

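All 8 Gimap differences stayed below 0 under each alternative run. Their median, -0.46, ranged from -0.56 to -0.36. Leaving out Gimap5 with the stricter filter at the 60th percentile gave -0.46. The Gimap3 difference moved by more than the spread between arrays only under quantile normalization (-0.30). The count of Gimap genes with every clone array below every transgenic array, 6, ranged from 6 to 8; its alternatives were chosen after seeing the data. The number of genes called over all genes, 5448, was 3635 without the first transgenic array, with the lone remaining mouse assumed to vary like the other arrays. Total counts called per list stayed within 1.5 times the reported ones in all alternatives. By direction, 3 rather than 5 genes around the cluster were lower with the filter at the 60th percentile and without the first transgenic array, and 2 transcription factors were higher with the mean over probe sets and 0 with eBayes without trend (limma), against 1. Among the genes around the cluster, 4 were called higher and 6 lower with the mean over probe sets, against 5 and 5. Tra2a, a gene around the cluster called higher in the main fit, was called lower there. Replicate numbers are shared by the groups but name no shared source, and same-numbered arrays deviated with correlations of -0.03 and -0.08. With the replicate block the Gimap median was -0.36 and 4633 genes were called. Replicate 3 has no transgenic array, so the block gave each Gimap gene the same difference as leaving out clone replicate 3. For the Gimap differences these are therefore not separate checks.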
